A study of Mus musculus with 12 samples.

Results

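The proteasome genes were taken as the row names beginning with PSMA to PSMG and a digit in the 2 deposited expression tables. That pattern matched 46 of the 11481 genes present in either table. One of them, PSMC3IP, encodes a recombination factor and not a proteasome protein, so 45 proteasome genes remained. Of these, 43 were measured in mock-treated cells and 45 after doxorubicin, with 43 in both tables. PSMB8 and PSMB9 had values after doxorubicin only. PSMA8, PSMB11, PSMD10 and PSME2B were not analysed here. The pattern picks genes by name and not by their values, although it was set with earlier results of these data known. Each table, however, lists only genes above 2 CPM (a gene's reads scaled to its library's total) in all 3 wild-type libraries. A member low in wild type therefore had no row to be tested. The deposited values are also labelled noYX, which reads as genes of the X and Y chromosomes left out. Whether an absent member lacked a row for either reason was not tested.

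The RNA came from primary mouse embryonic fibroblasts of a hybrid 129/B6 strain, sequenced as poly(A) mRNA libraries. The cells were either wild type for the long noncoding RNA lincRNA-p21 (lincRNA-p21+/+, WT) or lacked it (lincRNA-p21-/-, KO). Each genotype was left as mock or given doxorubicin, a DNA-damaging anthracycline, for 24 h at a dose the labels state as 0.5 mM. That made 4 groups of 3 biological replicates, WT and KO in mock and WT and KO with doxorubicin. The dose is copied as stated, and its unit is in doubt because micromolar doses are usual. LincRNA-p21 RNA was not analysed here, which leaves the genotypes as labelled and unchecked. What a replicate number stands for, such as an embryo, a litter or a day, is not given in the sources used here.

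The proteasome is the main protease of the cytosol and nucleus and degrades proteins tagged with ubiquitin. Its 20S core is a barrel of alpha rings around beta rings, of which PSMB5, PSMB6 and PSMB7 carry the active sites. In the immunoproteasome, which interferons induce and leukocytes hold at rest, PSMB8, PSMB9 and PSMB10 take those positions and favour peptides for MHC class I. The 19S cap binds ubiquitin chains, removes them and unfolds the substrate with its ATPases, while PSME1 to PSME4 form other caps and PSMG1 to PSMG4 are chaperones that assemble the core.

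The bases just before the start site are shown for the members whose RNA moved most with doxorubicin in each direction and for PSMB6, a constitutive active-site gene. RefSeq promoters (GRCm38.p6) were matched for 38 of the 45 members, and PSMC3 was not among them. Each line is the stretch before the start that held no annotated exon, 5′ to 3′ along the gene's own strand. Capitals mark a match on either strand to the antioxidant response element TGACNNNGC, the CCAAT box, the gamma-activated site TTCNNNGAA or the interferon-stimulated response element, searched as GAAA, any 2 bases and GAAA again.
PSME2 (chr14:55591114-55591351, minus strand): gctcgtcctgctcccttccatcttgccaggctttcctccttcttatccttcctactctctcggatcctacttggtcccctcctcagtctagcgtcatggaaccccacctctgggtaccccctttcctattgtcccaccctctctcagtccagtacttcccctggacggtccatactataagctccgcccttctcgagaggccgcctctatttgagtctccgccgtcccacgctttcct
PSMF1 (chr2:151741311-151741560, minus strand): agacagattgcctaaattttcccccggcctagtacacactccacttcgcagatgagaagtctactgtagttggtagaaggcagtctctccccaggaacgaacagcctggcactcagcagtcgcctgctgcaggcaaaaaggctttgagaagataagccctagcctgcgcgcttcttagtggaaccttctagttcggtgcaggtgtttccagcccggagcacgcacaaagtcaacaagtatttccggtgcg
PSMC1 (chr12:100109952-100110153, plus strand): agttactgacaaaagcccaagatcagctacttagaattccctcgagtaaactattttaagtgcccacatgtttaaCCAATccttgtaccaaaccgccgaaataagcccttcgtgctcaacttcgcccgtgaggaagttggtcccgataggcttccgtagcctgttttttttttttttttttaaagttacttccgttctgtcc
PSMG1 (chr16:95990961-95991210, minus strand): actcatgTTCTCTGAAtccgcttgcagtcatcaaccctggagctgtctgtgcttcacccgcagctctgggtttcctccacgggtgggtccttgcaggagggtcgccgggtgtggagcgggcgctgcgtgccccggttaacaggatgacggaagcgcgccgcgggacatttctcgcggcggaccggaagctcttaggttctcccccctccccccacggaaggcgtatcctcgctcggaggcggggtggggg
PSMG4 (chr13:34162714-34162963, plus strand): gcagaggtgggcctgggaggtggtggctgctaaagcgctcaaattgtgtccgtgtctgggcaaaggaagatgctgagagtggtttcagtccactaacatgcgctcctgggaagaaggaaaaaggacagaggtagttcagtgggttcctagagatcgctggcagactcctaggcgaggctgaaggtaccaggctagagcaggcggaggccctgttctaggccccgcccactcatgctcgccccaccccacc
PSMB6 (chr11:70525107-70525356, plus strand): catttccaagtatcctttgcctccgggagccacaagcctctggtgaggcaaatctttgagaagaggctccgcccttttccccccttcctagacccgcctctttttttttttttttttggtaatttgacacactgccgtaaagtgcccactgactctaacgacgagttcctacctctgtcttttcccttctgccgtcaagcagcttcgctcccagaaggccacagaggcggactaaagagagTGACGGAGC

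The antioxidant response element of PSMB6 ended 1 base before the start, the CCAAT box of PSMC1 began 175 bases before it, and the gamma-activated site of PSMG1 began 243 bases before it. PSME2, PSMF1 and PSMG4 held none of these letters in the stretch shown. Over the 250 bases before the start, the antioxidant response element was present in 13.2% of the 38 members and 11.5% of 27025 mouse genes. The CCAAT box was present in 31.6% of members and 37.5% of all genes, and the gamma-activated site in 5.3% and 8.1%. The interferon-stimulated response element was present in 7.9% of members, namely PSMB3, PSMD4 and PSMD9, and in 3.5% of all genes. A match describes letters only and is no evidence that a factor binds there.

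Library totals ran from 14327048 to 20511907 reads. The members with the fewest reads were PSMB8, with 43 to 134 per library, and PSMG4, with 38 to 133. The 9 fibroblast markers measured, with FN1, COL1A1 and COL1A2 at the highest levels, summed to between 46811 and 64097 CPM in mock and between 29550 and 39926 CPM after doxorubicin. Among them DCN was at 1.89 to 93.3 CPM and PDGFRA at 12.4 to 106 CPM over the 12 libraries. Of 15 leukocyte and macrophage markers only CD68 was measured in mock, at 2.42 to 58.3 CPM. CD68, CD14 and CORO1A were measured after doxorubicin and summed to between 70.5 and 175 CPM. PTPRC, the pan-leukocyte marker, was not analysed here. In a bulk sample, fewer cells of a type and less RNA per cell cannot be told apart.

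Levels per length of the longest coding transcript set the members apart from each other. In WT mock cells PSMD8, a subunit of the 19S lid, was highest at 148 ± 29.9 CPM per kb (SD, n = 3), followed by PSMB6 at 140 ± 4.83, PSMB7 at 127 ± 6.98 and PSMB2 at 126 ± 3.15. PSMB6, PSMB7 and PSMB2 all lay within the spread of PSMD8, as did PSMA7 and PSMB4 at 124 CPM per kb each. At the other end lay PSMF1, the inhibitor PI31, at 8.56 ± 0.55 CPM per kb, PSMB10 at 11.0 ± 3.67 and PSMG4 at 12.3 ± 2.53, also within their spread. The 4 core chaperones ran from 12.3 to 17.2 CPM per kb, below every alpha and beta subunit of the constitutive core.

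After doxorubicin 14 of 43 proteasome genes rose and 3 fell in WT cells. The largest rises were in the cap subunit PSME2, the 19S ATPases PSMC3 and PSMC1 and the inhibitor PSMF1, and the falls were in the core chaperones PSMG1 and PSMG4 and in PSMD9, a chaperone of the 19S base. The constitutive active-site genes PSMB5, PSMB6 and PSMB7 did not pass the test. A gene was called at a limma adjusted p under 0.05, corrected over all 10292 genes in both tables, and differences are given as log2(CPM + 1), a scale on which low genes appear to change less than they do. Over all genes 25.9% were called higher and 21.4% lower, so the members' rises were near the background and their falls below it. The members' median difference was 0.11, beside 0.01 over all genes. With the replicate number as a block, 16 members were higher (33.6% of all genes) and 4 lower (30.1%). All treated libraries lay above all mock libraries for 16 members (29.4% of all genes) and below them for 6 (25.3%).

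In KO cells 9 of 43 members rose, where 19.9% of all genes did, and 2 fell, where 14.6% of all genes did. Their median difference was 0.16, beside 0.04 over all genes. The members called higher in both genotypes were PSME2, PSMC3, PSMF1, PSMC1, PSMB3, PSMB4 and PSMD4, and those called lower in both were PSMG1 and PSMG4. With the replicate number as a block, 17 members were higher in KO (29.6% of all genes) and 2 lower (24%); the 8 added were PSMA4, PSMB1, PSMB7, PSMD2, PSMD6, PSMD8, PSMD13 and PSME3. Treated libraries lay wholly above mock ones for 12 members (27.1% of all genes) and wholly below for 5 (21.5%). Without KO doxorubicin replicate 2 the unblocked number higher was 5, beside 1628 of 10292 genes. Summed over the 43 genes, the members took 4948, 5304 and 5010 CPM in WT mock and 6170, 6067 and 6067 CPM in WT doxorubicin. They took 5442, 5905 and 4969 CPM in KO mock and 6186, 7197 and 5968 CPM in KO doxorubicin, so in both genotypes every treated library lay above every mock library.

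The scale of the tables bore on the small differences. When each library was centred on its median, the median over all genes in the WT comparison moved from 0.01 to -0.10 and the calls over all genes from 2664 higher and 2199 lower to 2202 and 2944. With quantile normalization they were 2308 and 2771. The members' median lay at -0.00 with centring and -0.01 with quantile normalization, above that of all genes in each case, and 9 and 10 members stayed higher. PSMB1, PSMD2, PSMD4 and PSMD13 lost their WT call under both scalings, and PSMD8 under centring. In KO, centring changed the calls over all genes from 2052 higher and 1500 lower to 1669 and 2027, quantile normalization gave 1833 and 1849, and 9 members were called higher under each, with PSMD8 in place of PSMB6 under quantile normalization.

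**Figure D1:**
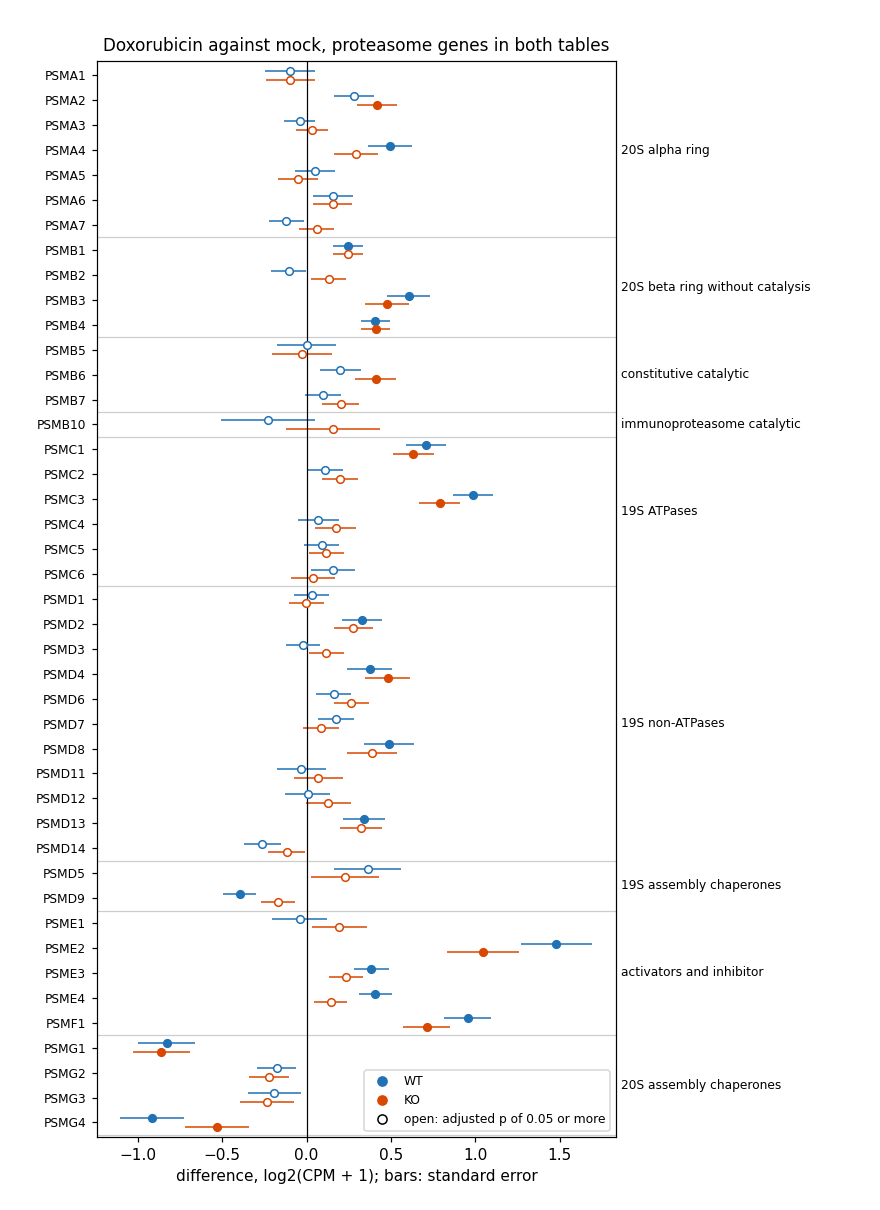
Difference between doxorubicin and mock for the 43 proteasome genes in both tables, on the log2(CPM + 1) scale on the horizontal axis, in WT (blue) and KO (orange); bars are the standard error and filled points have an adjusted p under 0.05. PSME2, at 1.48 in WT and 1.04 in KO, lies farthest to the right, and PSMG1 and PSMG4 farthest to the left.

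Among the activators, PSME2 rose and its partner PSME1 did not pass the test. The 2 proteins together form the interferon-inducible PA28 cap, which opens the core to peptides. PSME2 stood at 49.7, 39.0 and 36.3 CPM in WT mock and at 97.7, 109 and 150 CPM in WT doxorubicin, with no overlap. Its difference was 1.48 (SE 0.21, limma adjusted p = 0.000268). In KO it went from 39.5, 32.4 and 47.2 CPM to 65.9, 79.7 and 105 CPM, a difference of 1.04 (SE 0.21, adjusted p = 0.0036), again without overlap.

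PSME1 was at 46.8, 32.8 and 32.1 CPM in WT mock and at 40.5, 35.2 and 31.8 CPM in WT doxorubicin, so the groups overlapped. Its difference was -0.04 in WT (95% interval -0.40 to 0.32) and 0.19 in KO (-0.16 to 0.55). Within a library, the log2 ratio of PSME2 to PSME1 was 0.09 to 0.25 in WT mock and 1.27 to 2.24 in the treated WT libraries. In KO it was -0.03 to 0.17 in mock libraries and 0.47 to 1.33 in treated ones. PSME2 shares 794 bases of at least 95% identity with Psme2b, and PSME1 exons overlap those of Emc9 on the other strand, so reads of these pairs may have been split or shared.

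PSME3, the nuclear cap PA28 gamma, was at 134, 151 and 139 CPM in WT mock and 184, 181 and 189 CPM in WT doxorubicin, and rose by 0.38 (SE 0.10, limma adjusted p = 0.00946). PSME4, the cap PA200, went from 162, 190 and 153 CPM to 224, 224 and 219 CPM and rose by 0.41 (SE 0.10, adjusted p = 0.00574). For both, every treated WT library lay above every mock library. In KO the differences were 0.23 for PSME3 (adjusted p = 0.0974, 0.0301 with the block) and 0.14 for PSME4 (adjusted p = 0.287, 0.165 with the block), and the groups overlapped.

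PSMF1 encodes PI31, which binds the core and was first described as its inhibitor. It was at 34.7, 30.5 and 32.6 CPM in WT mock and at 61.1, 55.1 and 77.8 CPM after doxorubicin, a difference of 0.95 (SE 0.14, limma adjusted p = 0.000282). In KO it went from 39.7, 32.2 and 37.2 CPM to 58.2, 56.6 and 65.5 CPM, a difference of 0.71 (SE 0.14, adjusted p = 0.00272). Treated and mock libraries did not overlap in either genotype.

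The 6 ATPases of the 19S base, which unfold the substrate and thread it into the core, moved unequally. PSMC3 and PSMC1 rose in both genotypes. PSMC3 was at 180, 187 and 170 CPM in WT mock and 329, 354 and 384 CPM in WT doxorubicin, a difference of 0.99 (SE 0.12, limma adjusted p = 0.000102). In KO it went from 184, 206 and 159 CPM to 292, 361 and 297 CPM, a difference of 0.79 (SE 0.12, adjusted p = 0.000713). All treated libraries lay above all mock libraries of their genotype. PSMC3 exons overlap those of Slc39a13 on the other strand; SLC39A13 differed by 0.13 in WT (adjusted p = 0.385) and by 0.46 in KO (adjusted p = 0.0124).

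PSMC1 stood at 132, 148 and 131 CPM in WT mock and at 234, 206 and 235 CPM after doxorubicin, and rose by 0.71 (SE 0.12, limma adjusted p = 0.000717). In KO it rose by 0.63 (SE 0.12, adjusted p = 0.00238), from 151, 175 and 132 CPM to 219, 263 and 228 CPM, and no libraries overlapped. PSMC1 shares 1306 bases of near-identical sequence with another annotated gene. PSMC4, the ATPase with the smallest WT difference, was at 133, 139 and 125 CPM in WT mock and 142, 147 and 128 CPM in WT doxorubicin, which overlapped. Its difference was 0.07 (95% interval -0.20 to 0.34), and those of PSMC2, PSMC5 and PSMC6 were 0.11, 0.09 and 0.16. The differences of PSMC2, PSMC4 and PSMC5 in WT turned below 0 under both scaling alternatives.

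Of the 11 non-ATPase subunits, which recognise and remove ubiquitin and hold the cap together, 4 rose in WT: PSMD8, PSMD4, PSMD13 and PSMD2. PSMD8 was at 234, 291 and 353 CPM in WT mock and at 372, 407 and 441 CPM in WT doxorubicin, a difference of 0.49 (SE 0.15, limma adjusted p = 0.0184) without overlap. Without WT mock replicate 1 it was 0.34 (adjusted p = 0.0764), and without WT doxorubicin replicate 3 it was 0.43 (adjusted p = 0.0677). PSMD4, the ubiquitin receptor Rpn10, differed by 0.37 in WT and 0.48 in KO, the single non-ATPase called in KO. The WT calls of PSMD2 and PSMD13 were lost in 8 of 21 alternative settings each, with adjusted p-values up to 0.117 and 0.166, and that of PSMD4 in 7, up to 0.158. PSMD14, the deubiquitinase that strips ubiquitin chains, was at 120, 128 and 139 CPM in WT mock and 115, 98.4 and 108 CPM in WT doxorubicin, all treated libraries below all mock libraries. Its difference was -0.26 (adjusted p = 0.0687, and 0.0484 with the block) and reached -0.40 (adjusted p = 0.0091) with quantile normalization and -0.37 (adjusted p = 0.0143) with centring.

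The chaperones of the 19S base differed in direction. PSMD9 was at 32.0, 32.1 and 34.7 CPM in WT mock and at 24.7, 24.6 and 25.0 CPM in WT doxorubicin, and fell by 0.40 on the log2 scale (SE 0.10, limma adjusted p = 0.00705). In KO it was at 32.9, 29.5 and 33.8 CPM and then at 29.0, 27.9 and 28.3 CPM, a difference of -0.17 (adjusted p = 0.215) with no overlap. PSMD5 was at 65.6, 94.0 and 70.6 CPM in WT mock and at 96.3, 106 and 91.3 CPM in WT doxorubicin, which overlapped, with a difference of 0.36 (adjusted p = 0.159, and 0.0118 with the block).

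Within the core, 3 of the 4 beta subunits without an active site rose in WT, and 1 of the 7 alpha subunits did. PSMB3 went from 70.7, 69.7 and 74.0 CPM to 92.0, 115 and 122 CPM, a difference of 0.60 (SE 0.13, limma adjusted p = 0.00303). PSMB4 rose by 0.41 in each genotype (SE 0.09), from 144 to 151 CPM in WT mock to 194 to 196 CPM in WT doxorubicin. PSMB1 rose by 0.25 in WT (adjusted p = 0.0392), a call lost in 11 of 21 alternative settings, with adjusted p-values up to 0.237. PSMB2 was at 108, 112 and 106 CPM in WT mock and 110, 97.2 and 95.8 CPM in WT doxorubicin, which overlapped, with a difference of -0.10 (95% interval -0.33 to 0.12).

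PSMA4 was the alpha subunit called in WT, at 121, 135 and 122 CPM in mock and 161, 198 and 177 CPM after doxorubicin, a difference of 0.49 (SE 0.13, limma adjusted p = 0.00945). PSMA2 was the one called in KO, where it differed by 0.42 (adjusted p = 0.0196), beside 0.28 in WT (adjusted p = 0.0722, and 0.0128 with the block). PSMA7 was at 137, 150 and 142 CPM in WT mock and 137, 132 and 127 CPM in WT doxorubicin. Its treated libraries all lay below the mock ones, with a difference of -0.12 (adjusted p = 0.372), and with quantile normalization -0.26 (adjusted p = 0.0422). The alpha subunits of WT ran from -0.12 to 0.49 with a median of 0.05.

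The 4 core chaperones had lower means after doxorubicin in both genotypes, also under both scaling alternatives, and PSMG1 and PSMG4 passed the test. PSMG1 pairs with PSMG2 to line up the alpha ring. It was at 18.5, 16.8 and 18.5 CPM in WT mock and at 12.2, 9.02 and 8.13 CPM in WT doxorubicin, and fell by 0.83 on the log2 scale (SE 0.17, limma adjusted p = 0.00221). In KO it went from 21.1, 23.4 and 20.1 CPM to 13.2, 12.0 and 9.31 CPM and fell by 0.86 (SE 0.17, adjusted p = 0.0029). Its groups did not overlap in either genotype.

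PSMG4, which works with PSMG3, was at 8.38, 5.61 and 6.54 CPM in WT mock and at 3.82, 3.66 and 2.12 CPM in WT doxorubicin, and fell by 0.91 (SE 0.19, limma adjusted p = 0.00238). In KO it went from 6.62, 6.72 and 6.65 CPM to 4.35, 4.16 and 4.44 CPM, a difference of -0.53 (SE 0.19, adjusted p = 0.0491), without overlap. That KO call was lost in 12 of 20 alternative settings, with adjusted p-values over all 20 from 0.0209 to 0.114. PSMG2 was at 17.9, 18.3 and 21.4 CPM in WT mock and 17.9, 16.2 and 16.4 CPM in WT doxorubicin, just without overlap, and differed by -0.18 (adjusted p = 0.236). PSMG3 differed by -0.19 in WT (adjusted p = 0.337) and -0.23 in KO (adjusted p = 0.272). POMP, the maturation chaperone of the core and not a PSM-named gene, moved the other way, rising by 0.67 in WT (adjusted p = 0.000662) and 0.64 in KO (adjusted p = 0.00154).

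**Figure D2:**
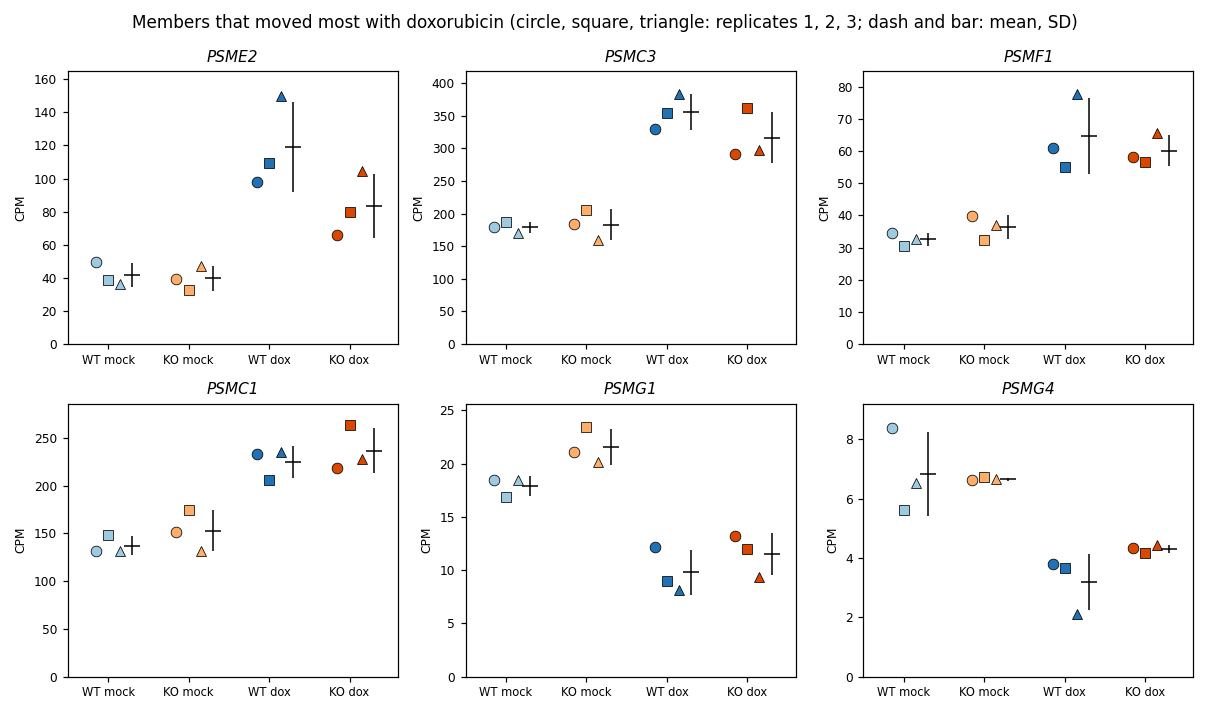
CPM of 6 proteasome genes in each library; circle, square and triangle are replicates 1, 2 and 3, the dash is the mean and the bar the SD of 3 libraries. Treated libraries lie above mock ones for PSME2, PSMC3, PSMF1 and PSMC1 and below them for PSMG1 and PSMG4, in both genotypes.

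The constitutive active-site gene was above its immunoproteasome counterpart in each library with values for both, which were all 12 libraries for PSMB7 and PSMB10 and the 6 doxorubicin libraries for the other pairs. Of these genes PSMB6, in KO, was the one called with doxorubicin. Per transcript length, WT doxorubicin cells had 161 ± 13.3 CPM per kb of PSMB6 and 9.47 ± 4.39 of PSMB9, 90.6 ± 6.62 of PSMB5 and 3.46 ± 1.78 of PSMB8, and 136 ± 7.23 of PSMB7 and 9.25 ± 2.80 of PSMB10 (SD, n = 3). The log2 ratio of CPM of PSMB9 to PSMB6 ran from -3.95 to -2.61 in WT doxorubicin and from -5.37 to -3.40 in KO doxorubicin, and that of PSMB8 to PSMB5 from -5.05 to -3.27 and from -5.06 to -3.59. The ratio of PSMB10 to PSMB7 was between -4.21 and -2.95 over all 12 libraries. PSMB5 has a near-identical annotated copy, and PSMB7 exons overlap Nek6 on the other strand.

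PSMB5, the chymotrypsin-like site, was at 79.8, 84.3 and 79.7 CPM in WT mock and at 76.9, 88.2 and 79.3 CPM in WT doxorubicin. The groups overlapped and the difference was 0.00 (95% interval -0.38 to 0.39) in WT and -0.03 (-0.41 to 0.36) in KO. PSMB7, the trypsin-like site, was at 153, 151 and 138 CPM in WT mock and 165, 160 and 149 CPM in WT doxorubicin, with a difference of 0.10 (-0.14 to 0.34), and of 0.20 in KO (limma adjusted p = 0.17, and 0.0379 with the block).

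PSMB6, the caspase-like site, was at 116, 110 and 109 CPM in WT mock and 140, 125 and 120 CPM in WT doxorubicin, without overlap but with a difference of 0.20 that did not pass (limma adjusted p = 0.2). In KO it rose by 0.41 (SE 0.12, adjusted p = 0.0227), from 133, 114 and 112 CPM to 164, 181 and 134 CPM. Leaving out KO mock replicate 2 or 3 or KO doxorubicin replicate 1 or 2 ended that call, with adjusted p-values of 0.0626 to 0.0871, as did quantile normalization (0.0723). PSMB10, the immunoproteasome gene with values in both tables, was at 19.8, 12.9 and 10.6 CPM in WT mock and 15.2, 13.1 and 8.07 CPM in WT doxorubicin. It overlapped between groups and differed by -0.23 in WT (95% interval -0.84 to 0.38) and 0.16 in KO (-0.45 to 0.77).

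After doxorubicin PSMB8 was at 7.98, 6.53 and 2.39 CPM in WT and 7.36, 3.37 and 3.79 CPM in KO, and PSMB9 was at 9.09, 9.65 and 19.7 CPM in WT and 4.48, 4.37 and 12.6 CPM in KO. The genotypes overlapped for both genes. PSMB9 exons overlap those of Tap1 on the other strand, and whether the counting used strand is not given in the sources used here. TAP1, the peptide transporter, was at 114, 97.5 and 151 CPM in WT doxorubicin and 81.8, 73.9 and 134 CPM in KO doxorubicin, also highest in replicate 3 of each genotype. The part of TAP1 reads in the PSMB9 values was not tested.

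**Figure D3:**
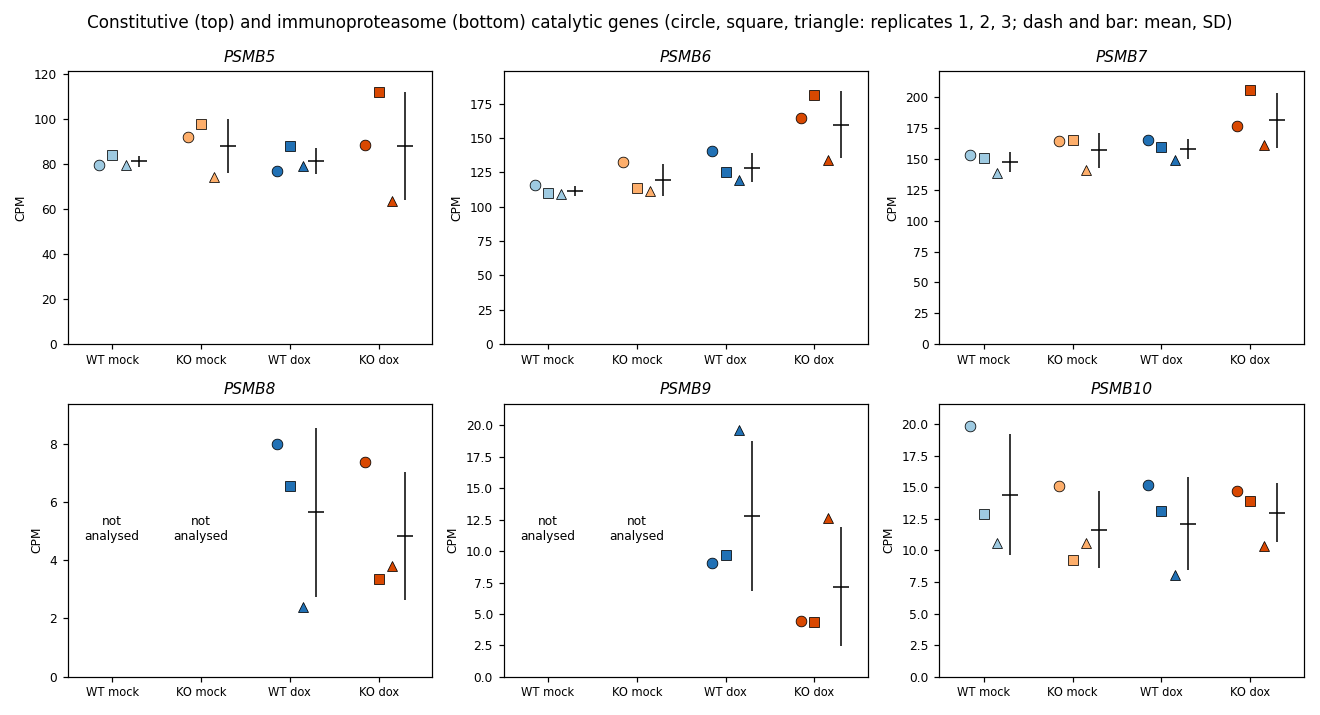
CPM of the constitutive active-site genes (top) and the immunoproteasome genes that replace them (bottom) in each library, on separate axes; symbols are replicates 1, 2 and 3, the dash is the mean and the bar the SD. PSMB5, PSMB6 and PSMB7 lie between 63.8 and 206 CPM, and PSMB8, PSMB9 and PSMB10 between 2.39 and 19.8 CPM.

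In mock cells no proteasome gene passed the test between KO and WT, with or without the replicate block. The limma fit called 0 of 43 members and 0% of the 10648 genes, with 0 members and 440 genes at an unadjusted p under 0.05. With the block it called 0 members, 0.563% of genes higher and 0.357% lower. At an unadjusted p under 0.05 the blocked fit had 5 members (PSMA3, PSMA6, PSMD8, PSMG1 and PSMG3), beside 2455 of 10648 genes. KO means exceeded WT means for 39 of 43 members and 7094 of 10648 genes, the medians being 0.09 and 0.06. With quantile normalization the count was 28 of 43 and the members' median 0.03, beside 0.01 over all genes. With median centring the count was 26 of 43 and the members' median 0.02, beside -0.00 over all genes. All KO libraries lay above all WT libraries for PSMA3, PSMB4, PSMD6, PSMG1 and PSMG3, a separation that 8.25% of all genes showed. None of the 43 members lay wholly below, as 1.74% of genes did. The largest difference was that of PSMD8, at 0.36 (95% interval -0.03 to 0.75).

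The higher KO values were mostly those of replicate numbers 1 and 2. Between WT and KO samples of the same number the members' median difference was 0.10 for number 1, 0.13 for number 2 and 0.00 for number 3. KO was above WT for 39, 40 and 22 of 43 members. In KO mock, replicate 2 was the highest of its group in 32 of 43 members and replicate 3 the lowest in 34. In WT mock the order was alike, with replicate 2 the highest in 25 and replicate 3 the lowest in 21. Replicate 2 was the highest for 37.2% of all genes in KO mock and 36.8% in WT mock. Same-number differences and the lowest library were not counted over all genes, in mock or after doxorubicin. Without number 3, the fit with the block called 9 members higher, PSMD8 among them, and 2 lower, PSME2 and PSMB10, where 1648 of 10648 genes were higher and 790 lower. Without number 1 or 2 it called 0 members.

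After doxorubicin the unblocked limma fit again called 0 of 45 members and 0% of the 11125 genes between KO and WT, with 1 member, PSME2, and 1246 genes at an unadjusted p under 0.05. With the replicate number as a block, PSMB6 was higher in KO (11.8% of all genes were) and PSME2 and PSMB9 were lower (13.6%). KO means exceeded WT means for 33 of 45 members, whose median was 0.11, beside 0.03 over all genes. KO libraries lay wholly above WT for PSMA3, PSMA7, PSMB4, PSMD3, PSMD8, PSMD9, PSMD14, PSMG2 and PSMG4 (9.7% of all genes) and wholly below for PSME4 (6.64%). The same-number medians were 0.01, 0.27 and 0.03, and KO replicate 2 was the highest of its group in 34 of 45 members, as it was for 36% of all genes.

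PSME2 differed by -0.51 between KO and WT after doxorubicin (SE 0.22, limma adjusted p = 0.443, and 0.007 with the block). It was lower in KO at each replicate number, by -0.56, -0.45 and -0.52 on the log2 scale, and its blocked call held without any 1 number. In mock its same-number differences were -0.32, -0.26 and 0.37. PSMB9 differed by -0.82 (SE 0.44, adjusted p = 0.454, and 0.0098 with the block), with same-number differences of -0.88, -0.99 and -0.60. Without number 1 its blocked adjusted p was 0.0546.

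PSMB6 differed by 0.31 (SE 0.14, limma adjusted p = 0.443, and 0.0466 with the block), with same-number differences of 0.23, 0.53 and 0.16. Its blocked adjusted p was 0.124 without number 1 and 0.0851 without number 2. PSMB8 and PSMB10 overlapped between genotypes, with differences of -0.13 (95% interval -1.10 to 0.84) and 0.12 (-0.50 to 0.74). Beside these values, CD14, a macrophage marker, was at 31.0, 38.7 and 32.6 CPM in WT doxorubicin and 18.6, 28.0 and 23.7 CPM in KO doxorubicin, and its part in the result was not tested. With the block, 2 of 3 epithelial, 2 of 2 skeletal muscle, 1 of 3 leukocyte and macrophage and 1 of 9 fibroblast markers were lower in KO too, which was not tested for its part either. CD68 overlapped between the genotypes, at 49.2 to 126 CPM and 45.4 to 112 CPM.

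**Figure D4:**
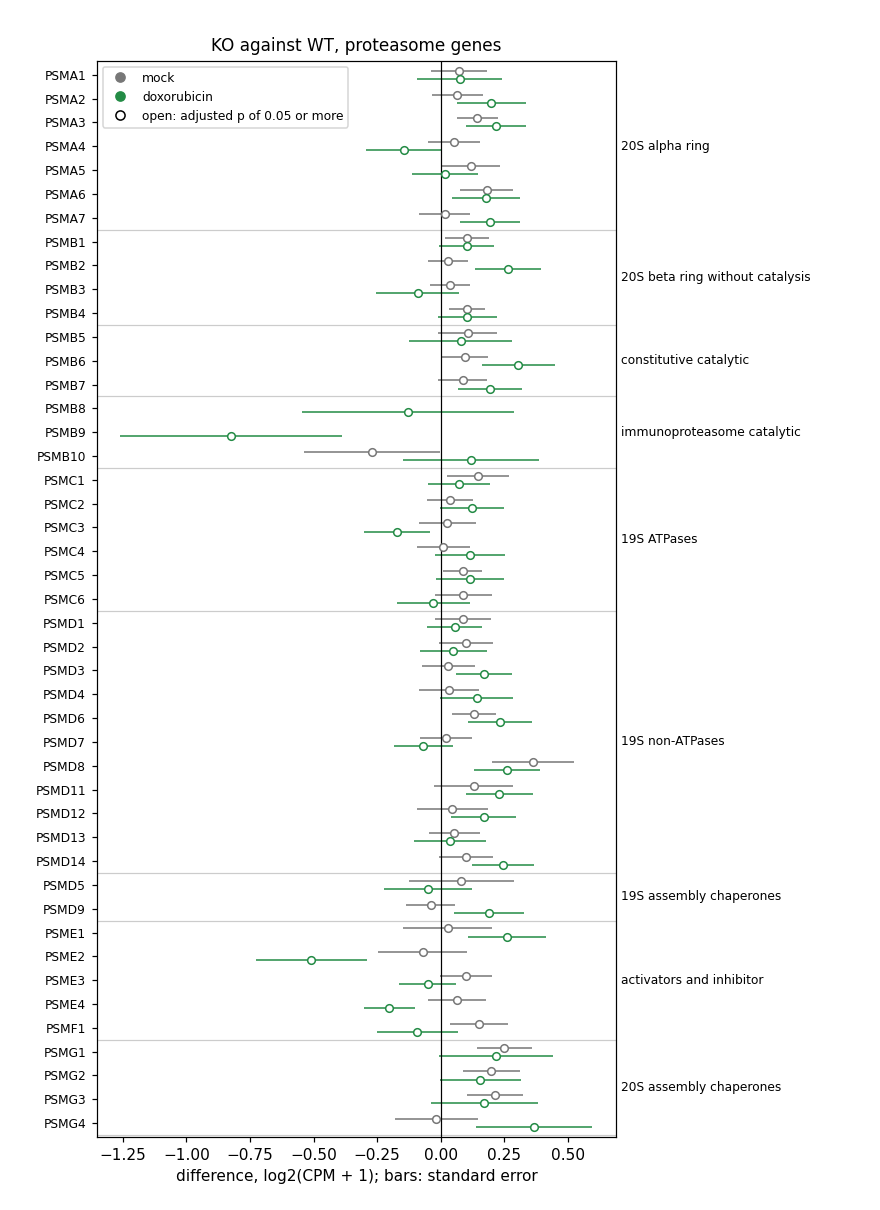
Difference between KO and WT for each proteasome gene, on the log2(CPM + 1) scale on the horizontal axis, in mock (grey) and after doxorubicin (green); bars are the standard error without a replicate block, and open points have an adjusted p of 0.05 or more. All points are open, and PSMB9 and PSME2 after doxorubicin lie farthest to the left, at -0.82 and -0.51.

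No proteasome gene passed the test of whether the doxorubicin response differed between genotypes. The limma interaction called 0 of 43 members and 0% of 10292 genes, with 0 members and 468 genes at an unadjusted p under 0.05. With the block it also called 0, with 1 member, PSME4, and 1610 genes at an unadjusted p under 0.05. For PSME2 the KO response minus the WT response was -0.44 (95% interval -1.10 to 0.22), for PSMG4 it was 0.39 (-0.20 to 0.97), for PSME4 -0.27 (-0.57 to 0.04) and for PSMB6 0.21 (-0.17 to 0.59). These intervals are from the fit without the block. They include 0 and also differences of appreciable size, so alike responses are not shown.

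Partners of the proteasome outside the PSM names moved in both directions with doxorubicin. Of 30 ubiquitin-proteasome partners measured, 12 rose and 5 fell in WT, where 25.9% of all genes rose and 21.4% fell. In KO 10 rose and 5 fell, where 19.9% and 14.6% of all genes did. The largest rises were in ZFAND2A, a stress-induced proteasome-binding protein, by 2.12 in WT and 1.48 in KO, and in the small Maf factor MAFK, by 1.48 and 1.31. NFE2L2, the partner of small Maf proteins at antioxidant response elements, rose by 0.86 in WT and 0.70 in KO, while NFE2L1, which drives proteasome genes when proteasome activity is short, differed by -0.01 and -0.32 and was not called. The ubiquitin-activating enzyme UBA6 fell by 0.83 and 0.53, the shuttle factor RAD23B fell by 0.75 and 0.58, and the 19S deubiquitinase UCHL5 fell by 0.84 in KO.

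Of 12 genes of antigen processing measured, 4 rose and 0 fell in WT, and 5 rose and 1 fell in KO, beside the same shares of all genes. TAP1 rose by 2.90 in WT (SE 0.38, limma adjusted p = 0.000162) and 2.94 in KO. IRF1 fell by 0.59 in KO (adjusted p = 0.0327). CD68, the macrophage marker measured in both tables, rose by 2.84 in WT (adjusted p = 0.0276) and differed by 2.24 in KO (adjusted p = 0.0862). The epithelial marker KRT19 rose by 3.55 in WT and 3.17 in KO and the endothelial marker KDR by 2.61 and 2.47, each 1 of 2 markers measured in both tables for its cell type. The other epithelial marker, KRT18, differed by 1.00 and 0.76 and was not called in the fit without the block. The other endothelial marker, EGFL7, went the opposite way, by -0.12 and -0.03, and was not called. EMCN, also endothelial, had values in mock only. Of the 2 skeletal muscle markers measured, DES rose by 1.58 in WT (adjusted p = 0.0348) and differed by 1.07 in KO (adjusted p = 0.154). The other, ACTA1, went the opposite way, by -2.44 in WT and -2.63 in KO. It was called lower only with the replicate block, in both genotypes. Of the 9 fibroblast markers 0 rose, and 4 fell in WT and 3 in KO. The part of these markers in the members' doxorubicin differences was not tested.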

How the data were processed

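The authors deposited CPM values (reads per gene scaled to the library total) in 2 tables, mock and doxorubicin, each with both genotypes. Tools listed in the submitters' processing notes are TopHat2 2.0.6, HTSeq and edgeR, with the assembly NCBIM37; what each tool did is not given in the sources used here. Per the labels' protocols a stranded mRNA kit was used. Values were whole multiples of 1 read over a library total, so that total could be read from them, and 99.2 to 99.6% of it fell in listed genes. Whether the total counts reads of X and Y genes is not given in the sources used here. Because the deposited unit is CPM, no count model was run.

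Each comparison was a limma fit (version 3.58.1, R 4.3.3, with a trended prior) to log2(CPM + 1). P-values were Benjamini-Hochberg adjusted over all genes, with a threshold of 0.05. Doxorubicin against mock and the interaction used all 12 libraries in 4 groups; KO against WT used the 6 libraries of a table. The script was tested on simulated data with known changes. Treatment and table coincide, so anything that set the tables apart cannot be told apart from doxorubicin.

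Replicate numbers were taken to pair samples, although no label gives the meaning of a number. The reason was that deviations from group means of same-numbered libraries correlated at 0.342 to 0.856 across genes in all pairs of groups. Correlations between different numbers were below 0, which subtracting group means forces on average once same-numbered ones are positive. The fit with the replicate block was an alternative. Others were pseudocounts of 0.1 and 5, a mean of at least 10 CPM, quantile normalization, median centring and leaving out each library. Leaving out a replicate number under the block was chosen after seeing the data.

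Members, classes and partner lists were chosen with earlier results of these data known. Full values are given for the active-site genes, PSME1 to PSME4, PSMF1, the members of each other class with the largest and smallest WT difference, and the 2 largest partner changes each way. PSMC1, PSMG1, PSMB1, PSMB4, PSMD4, PSMA2, POMP, NFE2L1, NFE2L2 and IRF1 were named after their values were seen. Transcript lengths, exon overlaps and near-identical copies (at least 95% over 200 bases) come from a GRCm38 annotation matched by name, and intervals are at 95%. Such copies were found for 9 of 45 members, among them the called PSMD2 (2726 bases), PSMA4 (783 bases) and PSMB3 (618 bases). Exons of 9 members overlapped another gene on the other strand, the called PSMA4 and PSMD13 among them. The part of such reads in these calls was not tested. Each length is that of the longest protein-coding transcript, so a gene whose main transcript is shorter has its level per kb understated.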

Additional observations from a re-analysis of the deposited data

How the results depend on the processing

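The direction of each called member held in all alternatives run, and PSME2, PSMC3, PSMF1, PSMC1, PSMB4 and PSMG1 kept their calls in both genotypes. In WT, leaving out 1 library gave 10 to 14 members higher and 3 lower, the block 16 and 4, median centring 9 higher and quantile normalization 5 lower. Over all 10292 genes, leaving out 1 library gave 2276 to 2664 higher and 1594 to 2310 lower in WT. In KO, leaving out 1 library gave 5 to 11 higher and 1 to 2 lower, beside 1543 to 2107 and 1003 to 1611 of 10292 genes. The block gave 17 higher, and the pseudocount of 0.1, the filter at 10 CPM, which removes PSMG4, and quantile normalization each gave 1 lower. With the replicate block and 1 number left out, KO had 8 to 14 higher and 1 to 2 lower, WT 12 to 16 higher and 3 to 4 lower. Over all 10292 genes, KO then had 2140 to 2507 higher and 1693 to 2087 lower. WT had 2858 to 3045 higher and 2350 to 2814 lower. Between genotypes in mock, the block called 0 members, and 0 to 9 higher and 0 to 2 lower with 1 number left out. Over all 10648 genes, 0 to 1648 were higher and 0 to 790 lower with 1 number left out. After doxorubicin the block called 1 higher and 2 lower, and 0 to 1 higher and 1 to 3 lower with 1 number left out, PSMC3 being the added one. There, 180 to 1108 of all 11125 genes were higher and 512 to 1482 lower with 1 number left out. Apart from the calls given with the results, the cause of these moves was not tested. PSMB8, PSMB9 and PSMG4 have the fewest reads, with lows of 43, 70 and 38 in a library.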
